A study of Rattus norvegicus with 9 samples.

Results

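The Toll-like receptors and the proteins that work with them were followed in the blood cells of rats fed chow or a cafeteria diet. The genes were 6 receptors (Tlr1, Tlr2, Tlr4, Tlr6, Tlr7 and Tlr9), the coreceptors Cd14 and Ly96, the adaptor Myd88 and the kinase Irak4. All probes of the array named for these genes, or for a RefSeq transcript of them, were taken. This gave 11 probes for 10 of 10 genes, out of 16682 named genes and 41012 probes, with 2 probes for Cd14 and 1 for each other gene. All 11 probes were among the 25805 that passed the filter on dim probes.

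The samples were peripheral blood mononuclear cells (PBMC), the white cells other than granulocytes that a Ficoll gradient separates from blood. They came from 9 male Wistar rats 6 months old, all fed freely up to bleeding from a leg vein. From 2 months of age and for 4 months, 4 control rats had standard chow alone and 5 cafeteria rats had fat-rich, energy-dense cafeteria food beside the same chow, so the chow was common to both groups. Each rat was hybridised to 1 rat whole-genome array, with its RNA in Cy5 and a reference pooled in equal molar amounts over the groups in Cy3. Per the labels, 1 more control rat was dropped for too little RNA. Rats are named here by group and by the number in their labels. A value is the log2 ratio of a rat's signal to the reference, so 0 is the level of the pool, and a difference is the cafeteria mean minus the control mean.

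Toll-like receptors bind molecules that microbes make and are best known in blood on monocytes, dendritic cells and B cells. TLR2, paired with TLR1 or TLR6, binds bacterial lipopeptides at the cell surface, TLR4 binds lipopolysaccharide there, and TLR7 and TLR9 bind single-stranded RNA and unmethylated CpG DNA in endosomes. CD14 hands lipopolysaccharide to TLR4 and its partner MD-2, the product of Ly96. MYD88 joins the engaged receptors to IRAK kinases, IRAK4 first, and from there to NF-kB and inflammatory cytokines.

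On each array 58.8% to 66.7% of the spots had Cy5 well above background, with cafeteria 1 lowest and control 7 highest. Markers of the expected cells (Cd3e, Cd79b, Csf1r, Lyz2, Coro1a and Laptm5) were well above background on 9 of 9 arrays, and so were Hbb of red cells, Pf4 of platelets, and S100a8 and S100a9, which neutrophils and monocytes make. The neutrophil granule gene Mpo was well above background on 0 of 9 arrays. Of 12 listed neutrophil markers 7 passed the filter on dim probes, Camp and Mmp9 among them. The Mpo value therefore does not show that neutrophils were absent. Correlations between arrays ran from -0.165 to 0.569. They were taken on log2 ratios to the pooled reference, not on signal levels, over filtered probes with a value on every array. PBMC are a mixture, so fewer cells of a type and less RNA per cell cannot be told apart in any value below.

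Positions are on rn4, the build of the file headers, which do not say whether a probe lies in an exon or an untranslated region. The probes lay at chr14:46124542-46124601 for Tlr1 and chr14:46100547-46100606 for the neighbouring gene Tlr6, both on the plus strand. Those of Tlr2 and Tlr4 lay at chr2:175608160-175608217 on the minus strand and chr5:83577410-83577469 on the plus strand. That of Tlr7 lay at chrX:47356167-47356226 on the plus strand, and no position was given for Tlr9. The brighter Cd14 probe lay at chr18:29374990-29375049 and the second at chr18:29375770-29375829, both on the minus strand. Ly96 was probed at chr5:1705385-1705444 and Myd88 at chr8:124301373-124301432, both on the minus strand. The Irak4 probe was placed at chr7:133077639-133080589 on the plus strand, an interval wider than those of the other probes. Each probe was well above background on 9 of 9 arrays except the second Cd14 probe, on 8 of 9 (not on cafeteria 1), and none was saturated.

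The promoters of a receptor, its adaptor and its kinase are shown because these 3 genes form 1 signalling chain and their levels are set against each other below. Each is the 250 bases before the transcript start in RefSeq (build GRCr8), with capitals at the letters of a motif searched on both strands. They lie at chr5:85160997-85161246 on the plus strand for Tlr4, chr8:127956231-127956480 on the minus strand for Myd88 and chr7:127561527-127561776 on the plus strand for Irak4.
Tlr4: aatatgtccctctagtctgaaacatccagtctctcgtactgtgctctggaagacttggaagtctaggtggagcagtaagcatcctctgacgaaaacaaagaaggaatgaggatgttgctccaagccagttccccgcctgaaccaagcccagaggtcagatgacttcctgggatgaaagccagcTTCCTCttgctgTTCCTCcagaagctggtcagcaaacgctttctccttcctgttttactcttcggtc
Myd88: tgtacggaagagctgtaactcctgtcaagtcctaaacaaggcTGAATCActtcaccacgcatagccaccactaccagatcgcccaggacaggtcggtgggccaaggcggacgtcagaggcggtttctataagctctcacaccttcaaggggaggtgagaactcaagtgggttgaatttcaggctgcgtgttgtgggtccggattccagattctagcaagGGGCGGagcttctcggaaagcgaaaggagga
Irak4: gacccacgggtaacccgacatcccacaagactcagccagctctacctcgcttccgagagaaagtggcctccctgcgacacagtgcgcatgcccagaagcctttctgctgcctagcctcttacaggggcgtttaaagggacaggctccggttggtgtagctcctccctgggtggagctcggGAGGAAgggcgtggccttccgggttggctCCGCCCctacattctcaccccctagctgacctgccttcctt

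The capitals in Tlr4 mark GAGGAA, a core bound by PU.1, the myeloid factor encoded by Spi1, which occurs there 2 times on the opposite strand. In Myd88 they mark a match to the searched pattern TGANTCA, there TGAATCA, and GGGCGG (Sp1). In Irak4 they mark GAGGAA and GGGCGG. No 2 of the capital runs overlap within a printed promoter. A promoter was found for 9 of the 10 genes, and GAGGAA occurred in 6 of these 9 (Tlr4, Tlr6, Tlr7, Tlr9, Cd14 and Irak4), against 23.3% of 33469 RefSeq promoters. GGGCGG occurred in 3 (Tlr2, Myd88 and Irak4), against 30.5%. TGANTCA occurred in Tlr9 and Myd88, against 6.34%. The C/EBP motif TTGCNNAA occurred in Tlr7 alone, against 9.22%, and the NF-kB consensus in Tlr2 alone, against 6.33%, with matches there that overlap each other. These matches describe letters in a window and are not measured binding sites. The Tlr2, Cd14, Tlr1 and Tlr7 windows lie within the span of another transcript of the gene.

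None of the 10 genes differed between cafeteria and control rats past an adjusted p of 0.05, and Cd14 was the gene with the widest spread between animals. By limma with Benjamini-Hochberg adjustment over 25805 probes, 0 of the 11 probes passed, where 0.00775% of all probes (2) did. At an unadjusted p under 0.05 there was 1 of 11, Tlr6, where 4.4% of all probes passed in either direction with 1.54% higher and 2.86% lower in cafeteria rats. The groups did not overlap for 0 of 11 probes, against 1.27% of all probes. Cafeteria means were higher for 3 of the 11 probes (Tlr4, Tlr6 and Irak4) and lower for 8, where 54.3% of all probes were higher. The median difference was -0.04 over the 11 probes and 0.0092 over all probes, and the median absolute difference was 0.12 against 0.061. The smallest adjusted p among the 11 was 0.997.

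**Figure D1:**
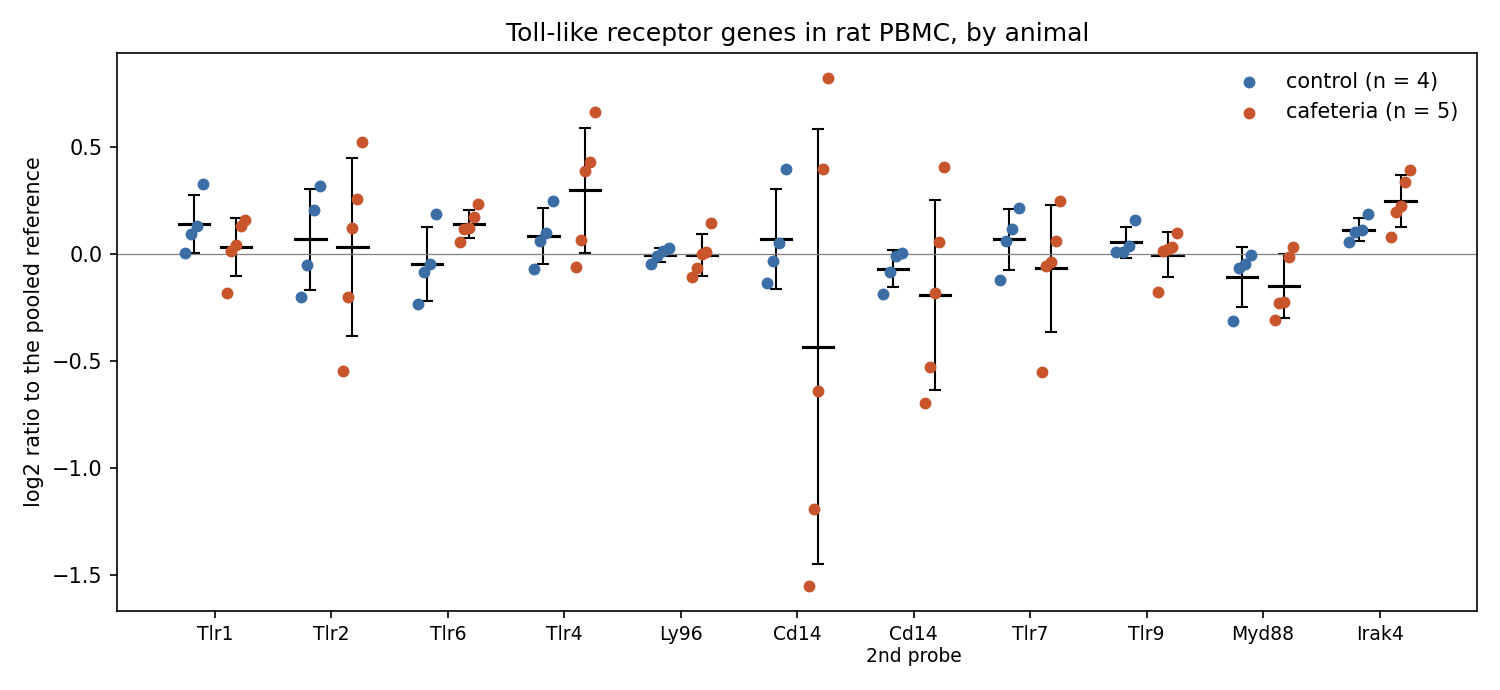
Log2 ratio to the pooled reference (vertical axis) of each Toll-like receptor gene, with 1 point per rat (control, n = 4, blue; cafeteria, n = 5, orange); bars are group means and whiskers the SD. Every gene has overlapping groups, and the Cd14 probe spreads in cafeteria rats from -1.55 to 0.82.

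Cd14, the coreceptor that delivers lipopolysaccharide to TLR4, varied more between cafeteria rats than between controls. It was 0.40, 0.05, -0.14 and -0.04 in control rats 1, 4, 7 and 13. It was -1.55, 0.40, -1.19, 0.82 and -0.64 in cafeteria rats 1, 4, 7, 10 and 13. Thus 3 cafeteria rats lay below every control, cafeteria 10 lay above every control, and cafeteria 4 was level with the highest one. The group means were -0.43 ± 1.02 (SD, n = 5) in cafeteria and 0.068 ± 0.23 (SD, n = 4) in control rats, a difference of -0.50 (SE 0.44, 95% interval -1.49 to 0.49, unadjusted p = 0.284, adjusted p = 0.997 by limma). The interval spans 0 and covers a change in either direction. The difference was -0.22 without cafeteria 1, -0.81 without cafeteria 10 and -0.20 with array weights. The range over the 9 rats was 2.37, and 0.457% of the probes tested had a wider one.

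The second Cd14 probe ordered the cafeteria rats the same way on a narrower scale. It read -0.01, 0.00, -0.19 and -0.09 in the controls and -0.70, 0.05, -0.53, 0.40 and -0.19 in the cafeteria rats, in the same order of animals. The difference was -0.12 (SE 0.20, unadjusted p = 0.552), and it turned to 0.0058 without cafeteria 1. The probes correlated over the 9 rats (Pearson r = 0.966, two-sided exact permutation p = 1.93e-05). The background-uncorrected Cy5 intensity ran from 216 to 1537 on the first probe and from 78.5 to 255 on the second, nearer the offset of 50 that the background step adds.

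Markers of monocytes, the blood cells that carry most CD14, placed the cafeteria rats much as Cd14 did. The mean log2 ratio of 15 monocyte markers was 0.11, 0.13, -0.23 and -0.15 in control rats 1, 4, 7 and 13. It was -0.52, 0.18, -0.37, 0.16 and -0.07 in cafeteria rats 1, 4, 7, 10 and 13, so the 2 rats lowest in Cd14 were the 2 lowest in these markers. Of the 15 markers, all of which were tested, 4 were higher and 11 lower in cafeteria rats, with 0 at an unadjusted p under 0.05 and a median difference of -0.04. Their part in the Cd14 values was not tested.

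Tlr4, the lipopolysaccharide receptor, was highest in 3 cafeteria rats. It was 0.06, 0.10, 0.24 and -0.07 in control rats 1, 4, 7 and 13, and 0.39, 0.06, 0.43, -0.06 and 0.66 in cafeteria rats 1, 4, 7, 10 and 13. Cafeteria 1, 7 and 13 lay above every control, while cafeteria 4 and 10 lay within the control range. The means were 0.30 ± 0.29 (SD, n = 5) and 0.083 ± 0.13 (SD, n = 4), a difference of 0.21 (SE 0.14, 95% interval -0.10 to 0.53, unadjusted p = 0.161). It was 0.12 without cafeteria 13 and 0.30 (unadjusted p = 0.0382 by limma) without cafeteria 10, and 0.12 without background correction. The 3 rats with the highest Tlr4 were those with the lowest Cd14.

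Ly96, which encodes the MD-2 subunit that binds lipopolysaccharide, was the member with the narrowest range. It was 0.03, 0.01, -0.05 and -0.01 in the controls and -0.07, 0.01, -0.11, 0.14 and 0.00 in the cafeteria rats, in the order of animals above. The cafeteria rats spread to both sides of the controls. The difference was -0.00017 (SE 0.062, 95% interval -0.14 to 0.14, unadjusted p = 0.998). The range over the 9 rats was 0.25, and 81.9% of the probes tested had a wider one. The Cy5 intensity of this probe was 99.2 to 184, so the added offset of 50 compresses its ratios.

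Among the lipopeptide receptors, Tlr6 was the gene with the smallest p. It was -0.09, 0.18, -0.05 and -0.24 in control rats 1, 4, 7 and 13 and 0.12, 0.12, 0.17, 0.06 and 0.23 in cafeteria rats 1, 4, 7, 10 and 13. All 5 cafeteria rats were above the reference pool and above 3 of the 4 controls, and control 4 lay inside the cafeteria range. The means were 0.14 ± 0.066 (SD, n = 5) and -0.046 ± 0.17 (SD, n = 4). The difference was 0.19 (SE 0.083, 95% interval 0.0012 to 0.37, unadjusted p = 0.0488, adjusted p = 0.997 by limma), so it did not pass the adjustment. The unadjusted p was 0.05 or more in 7 of the 9 fits that left out 1 rat. The difference kept its sign under every alternative run, from 0.12 without control 13 to 0.37 on the values of the authors' deposited table.

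Tlr2, the shared partner of TLR1 and TLR6, spread widely in both groups. It was -0.05, 0.31, 0.21 and -0.20 in the controls and -0.55, 0.52, -0.20, 0.25 and 0.12 in the cafeteria rats. Cafeteria 1 was the lowest rat and cafeteria 4 the highest, so the cafeteria values enclosed all 4 controls. The difference was -0.04 (SE 0.20, 95% interval -0.49 to 0.41, unadjusted p = 0.858), and it changed sign without cafeteria 1, to 0.11. The range of 1.07 was exceeded by 6.32% of the probes tested.

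Tlr1, the other partner of TLR2, was 0.32, 0.09, 0.00 and 0.13 in the controls and -0.18, 0.01, 0.04, 0.13 and 0.16 in the cafeteria rats. Control 1 was the highest and cafeteria 1 the lowest, and the remaining rats overlapped. The difference was -0.11 (SE 0.088, 95% interval -0.30 to 0.090, unadjusted p = 0.254), -0.04 without control 1. The probe counted for Tlr1 carries a model transcript with the locus number of that gene, not the symbol.

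The endosomal receptors Tlr7 and Tlr9 showed no difference past the test. Tlr7, which senses single-stranded RNA, was 0.22, 0.06, -0.12 and 0.12 in the controls and -0.55, 0.06, -0.04, -0.06 and 0.25 in the cafeteria rats. Cafeteria 1 alone lay below the control range, and cafeteria 13 was just above it. The difference was -0.14 (SE 0.14, 95% interval -0.46 to 0.19, unadjusted p = 0.369), and -0.01 without cafeteria 1. Tlr9, the receptor of CpG DNA, was 0.03, 0.01, 0.16 and 0.01 in the controls and 0.10, 0.01, 0.03, -0.18 and 0.02 in the cafeteria rats. Apart from control 7 at the top and cafeteria 10 at the bottom, the rats lay close together. The difference was -0.06 (SE 0.068, 95% interval -0.21 to 0.095, unadjusted p = 0.426), and -0.01 without cafeteria 10.

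Markers of B cells, which express Tlr7 and Tlr9, were higher in cafeteria rats for 8 of the 8 tested (median difference 0.28, 1 at an unadjusted p under 0.05 and 0 after adjustment). Their mean ran from -0.28 to 0.17 in control and from -0.25 to 0.42 in cafeteria rats. Of 9 listed markers of plasmacytoid and other dendritic cells 4 were tested, with 2 higher and 2 lower and a mean of -0.28 to 0.02 in control and -0.20 to 0.16 in cafeteria rats. Of the remaining lists, T cell markers were lower for 9 of 9 (median difference -0.13) and platelet markers lower for 10 of 10 (-0.40). NK cell markers were higher for 7 of 8 (0.32), erythroid markers higher for 7 of 9 (0.50) and neutrophil markers higher for 2 of 7 (-0.05). No marker passed the adjusted threshold by limma. An unadjusted p under 0.05 was found for 6 erythroid, 2 NK cell, 2 T cell, 1 neutrophil and 1 dendritic cell marker, against 4.4% of all probes. The groups did not overlap for 3 of the 9 erythroid markers tested and for no marker of another list, against 1.27% of all probes. The part of these lists in the receptor values was not tested.

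Downstream of the receptors, Irak4 had a higher mean in cafeteria rats that did not pass the adjusted test, and the sign for Myd88 depended on the scaling. Irak4, the kinase that MYD88 recruits first, was 0.18, 0.06, 0.11 and 0.10 in control rats 1, 4, 7 and 13 and 0.39, 0.08, 0.34, 0.20 and 0.22 in cafeteria rats 1, 4, 7, 10 and 13. Cafeteria rats 1, 7, 10 and 13 lay above every control, and cafeteria 4 fell inside the control range. The means were 0.24 ± 0.12 (SD, n = 5) and 0.11 ± 0.053 (SD, n = 4), a difference of 0.13 (SE 0.071, 95% interval -0.03 to 0.29, unadjusted p = 0.0932, adjusted p = 0.997 by limma). It was 0.029 on Cy5 alone and 0.23 on the authors' deposited table.

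Myd88, the adaptor of all the receptors listed, was -0.05, -0.07, -0.31 and -0.01 in the controls and -0.31, -0.01, -0.23, 0.03 and -0.23 in the cafeteria rats. Control 7 and cafeteria 1 were the lowest, at nearly the same value, so the groups covered the same range. The means were -0.15 ± 0.15 (SD, n = 5) and -0.11 ± 0.14 (SD, n = 4), a difference of -0.04 (SE 0.093, 95% interval -0.25 to 0.17, unadjusted p = 0.664). Its sign turned under 5 of the other scalings, up to 0.14 on the authors' deposited table.

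**Figure D2:**
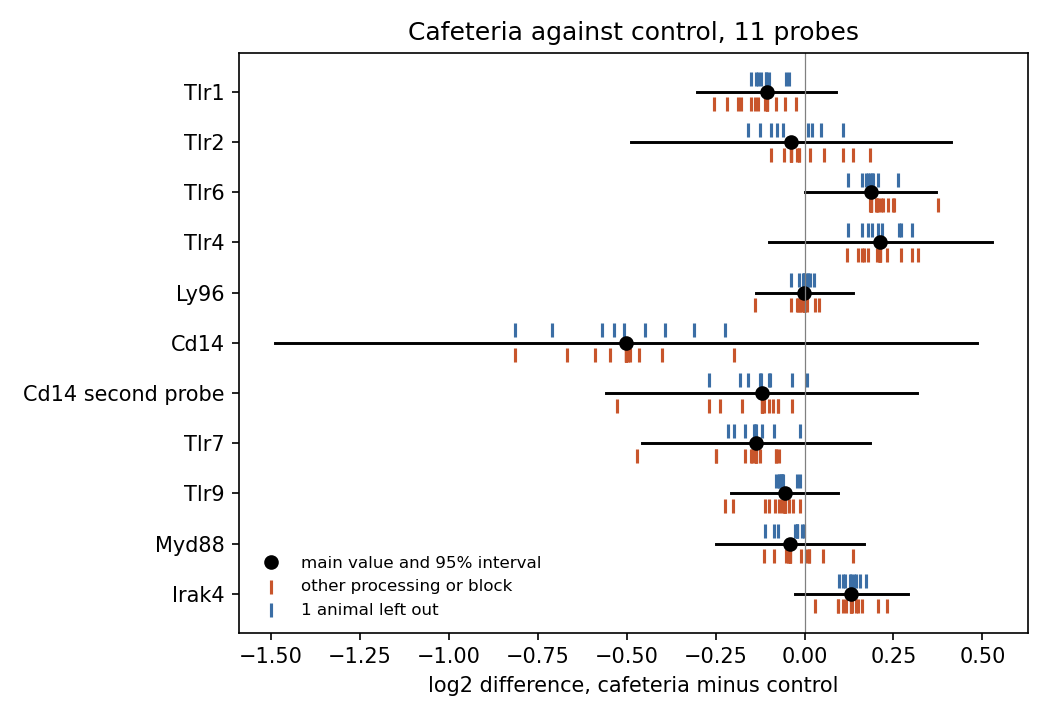
Log2 difference, cafeteria minus control (horizontal axis), of the 11 probes: black points and lines are the limma value and its 95% interval, orange ticks the other processing or block settings, and blue ticks the values with 1 rat left out. The Tlr6 interval alone stays above 0, from 0.0012 to 0.37, and the Cd14 interval runs from -1.49 to 0.49.

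Slide, which the file headers give, and image-extraction session did not hold the groups equally. Session is a name used here for arrays whose extraction dates in the headers share their last 4 digits. The headers name no sessions, and such arrays need not have been extracted in 1 run. Slides 3 and 5 each held 1 rat of each group, and every other slide held 1 rat. Cd14 was -1.95 in cafeteria 1 against control 1 on slide 3 and 0.85 in cafeteria 10 against control 13 on slide 5, so its sign differed between slides. Tlr6 was higher in the cafeteria rat on both, by 0.21 and 0.29, and Irak4 was too, by 0.21 and 0.095. Tlr4 differed by 0.33 on slide 3 and 0.0086 on slide 5. Tlr7 was lower in the cafeteria rat on both, by values of -0.77 and -0.17. With slide as a fixed block the Tlr7 difference was -0.47. That fit takes the difference from the rats of slides 3 and 5 alone, so it adds no support beyond these values. With the same block, and the same limit, Tlr1 differed by -0.25. In the session of 6 arrays (2 control and 4 cafeteria) the difference was -0.82 for Cd14, 0.31 for Tlr6, 0.36 for Tlr4 and 0.14 for Irak4. In the session of 3 arrays (2 control and 1 cafeteria) it was 0.44 for Cd14, 0.26 for Tlr2, 0.17 for Myd88, 0.05 for Tlr6, -0.11 for Tlr4 and -0.0033 for Irak4. In that smaller session 8 of the 11 probes had the sign opposite to the pooled one, all but Tlr1, Tlr6 and Tlr9, against 1 of 11 in the larger session. A slide with 1 rat per group allows no test.

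The spread within groups was the more visible feature of these genes. The SD was larger in cafeteria than in control rats for 9 of the 11 probes, against 53.8% of all probes tested. The 11 probes are not independent. Of these, 2 are of Cd14 (r = 0.966), and Cd14, Ly96 and Myd88 moved together over the same rats (r from 0.74 to 0.82). The share of probes with a wider range over the 9 rats was 5.95% for the second Cd14 probe, 13.4% for Tlr7 (range 0.80) and 16.6% for Tlr4 (0.73). It was 35% for Tlr1, 40.7% for Tlr6, 62.5% for Myd88, 64.3% for Tlr9 and 65% for Irak4. The spread was therefore on Cd14, Tlr2, Tlr7 and Tlr4, with the other genes near or under the middle of all probes.

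**Figure D3:**
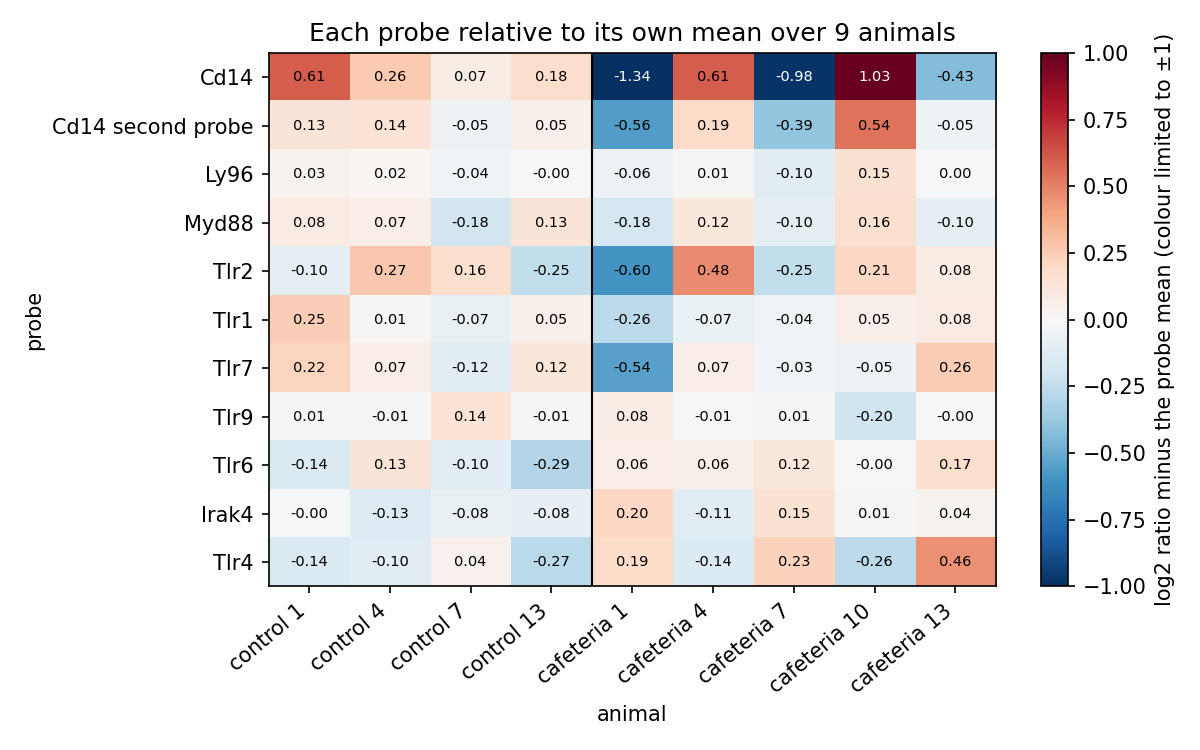
Each of the 11 probes (rows) in each of 9 rats (columns), as the log2 ratio minus the probe's mean over the rats; colour is limited to 1 on either side and the number is in each cell. Cafeteria 1 and 7 are low for Cd14 (-1.34 and -0.98) and cafeteria 10 is high (1.03), with Ly96 and Myd88 on the same side and Tlr4 on the other.

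Genes that act in 1 receptor step were set against each other over the 9 rats, for 9 listed pairs. Cd14 and Ly96 were positively related (Pearson r = 0.82, two-sided exact permutation p = 0.0042, adjusted over the 9 pairs 0.0379; Spearman rho = 0.88, p = 0.0031, adjusted 0.0277). Without the 2 rats farthest from the median of Cd14, cafeteria 1 and 7, r was 0.74. It was 0.88 within cafeteria rats, 0.85 within controls and 0.89 in the session of 6 arrays.

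Tlr4 ran against Cd14 (r = -0.77, exact permutation p = 0.0163, adjusted 0.0488; rho = -0.75, p = 0.0255, adjusted 0.0765) and against Myd88 (r = -0.80, exact permutation p = 0.0103, adjusted 0.0461; rho = -0.82, p = 0.0108, adjusted 0.0485). Without cafeteria 7 and 13, the rats farthest from the median of Tlr4, r was -0.84 with Cd14 and -0.93 with Myd88. Within cafeteria rats r was -0.78 and -0.86, within controls -0.28 and -0.92, and in the session of 6 arrays -0.75 and -0.89.

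Tlr2 and Cd14 had r = 0.73 (exact permutation p = 0.0258, adjusted 0.058; rho = 0.70, p = 0.0433, adjusted 0.0973), which did not pass the adjustment. It was 0.46 without cafeteria 1 and 4 together, 0.52 without cafeteria 1 alone and 0.71 without cafeteria 4 alone. Within controls it was -0.27, against 0.89 within cafeteria rats. The other 5 pairs did not pass: r was -0.58 for Tlr4 and Ly96, 0.28 for Tlr2 and Tlr1, 0.20 for Tlr2 and Tlr6, -0.28 for Tlr7 and Tlr9, and -0.55 for Myd88 and Irak4 (exact permutation p from 0.102 to 0.611). The values of slides were too few to give r within a slide.

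These relations depended on how the ratios were scaled. Under 6 alternative scalings the sign of r for Cd14 and Ly96 was the same in 6 and p stayed under 0.05 in 3, with r from 0.55 to 0.82. For Tlr4 and Cd14 the sign was the same in 6 and p stayed under 0.05 in 0, with r from -0.56 to -0.34 (exact permutation p from 0.111 to 0.369). For Tlr2 and Cd14 the sign was the same in 6 and the exact permutation p stayed under 0.05 in 3, with r from 0.32 to 0.78. For Tlr4 and Myd88 the sign was the same in 5 and p stayed under 0.05 in 1, and r was 0.45 with median centring in place of loess. Over all 45 pairs of the 10 genes, 11 had an unadjusted p under 0.05, and after adjustment over the 45 pairs 1 passed. That pair was Tlr9 and Myd88 (r = -0.74, exact permutation p = 0.000694, adjusted 0.0313; rho = -0.80, p = 0.0138), named after its value was seen. Its r was -0.72 without cafeteria 10 and control 7, -0.81 within cafeteria rats and -0.98 within controls, and it was not computed under the other scalings.

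**Figure D4:**
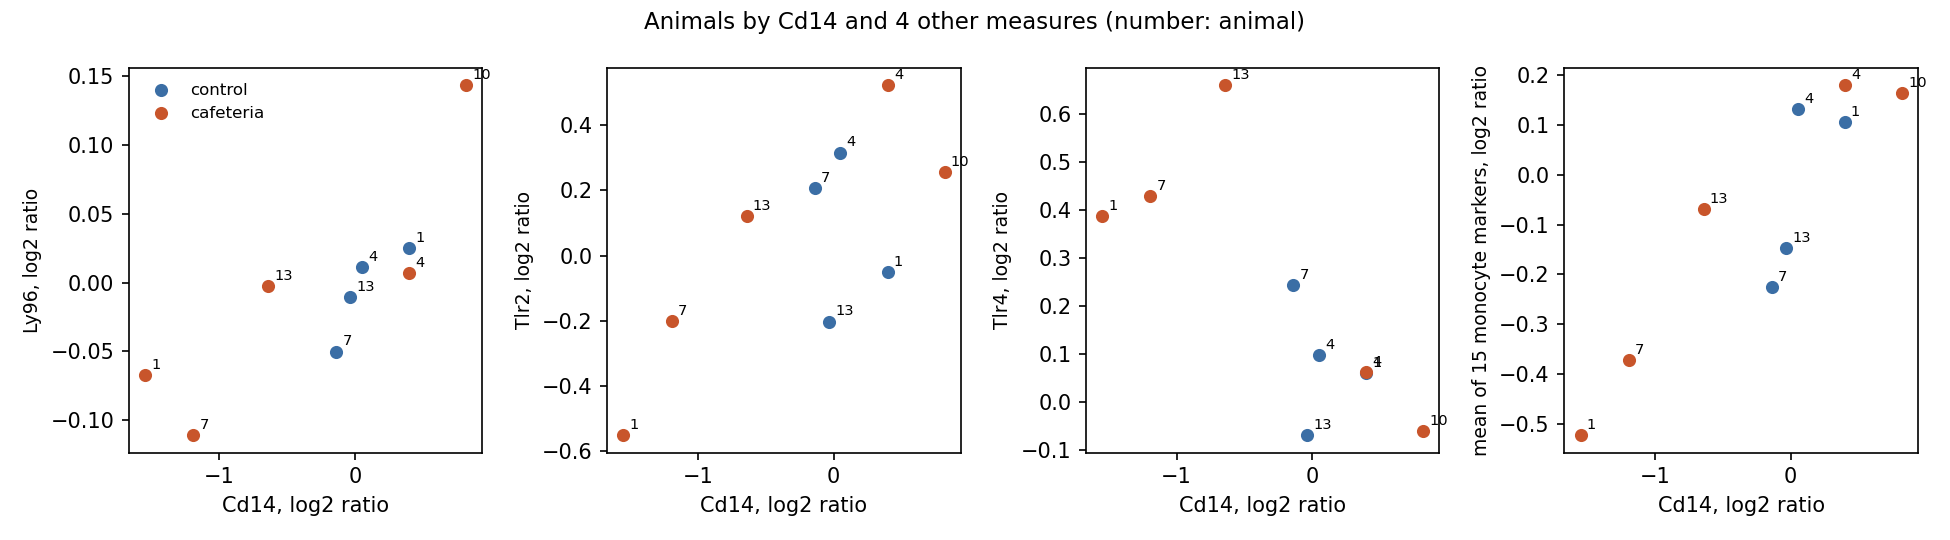
Cd14 log2 ratio (horizontal axes) of each rat against Ly96, Tlr2, Tlr4 and the mean of 15 monocyte markers (vertical axes, log2 ratio), with the rat's number beside its point (control blue, cafeteria orange; control 1 lies under cafeteria 4 in the Tlr4 panel). Cafeteria 1 and 7 are the lowest in Cd14 and in Ly96 (r = 0.82), while cafeteria 13, low in Cd14, is not low in Ly96. Cafeteria 1, 7 and 13 are the lowest in Cd14 and the highest in Tlr4 (r = -0.77). Both r depended on how the ratios were scaled.

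Among 11388 named genes, likeness to a member was measured as the root mean square difference of log2 ratios over the 9 rats, each gene centred on its own mean. The genes nearest Cd14, whose own root mean square about its mean was 0.73, were Vcan (0.186), Prg4 (0.205), Clec10a (0.226), Thbd (0.228) and Atf3 (0.294). Vcan encodes the proteoglycan versican and is on the monocyte list, Prg4 encodes lubricin, Clec10a a galactose-binding lectin of myeloid cells, Thbd thrombomodulin and Atf3 a stress-induced transcription factor. Vcan was -1.27, 0.16, -1.003, 1.08 and -0.36 in cafeteria rats 1, 4, 7, 10 and 13 and -0.05 to 0.42 in controls. Clec10a was -1.74, 0.05, -1.42, 0.74 and -0.58 in the same cafeteria rats and -0.29 to 0.11 in controls. Both were low in cafeteria 1 and 7 and high in cafeteria 10, as Cd14 was. This follows from their choice by likeness to Cd14 over the same rats and is no separate finding.

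**Figure D5:**
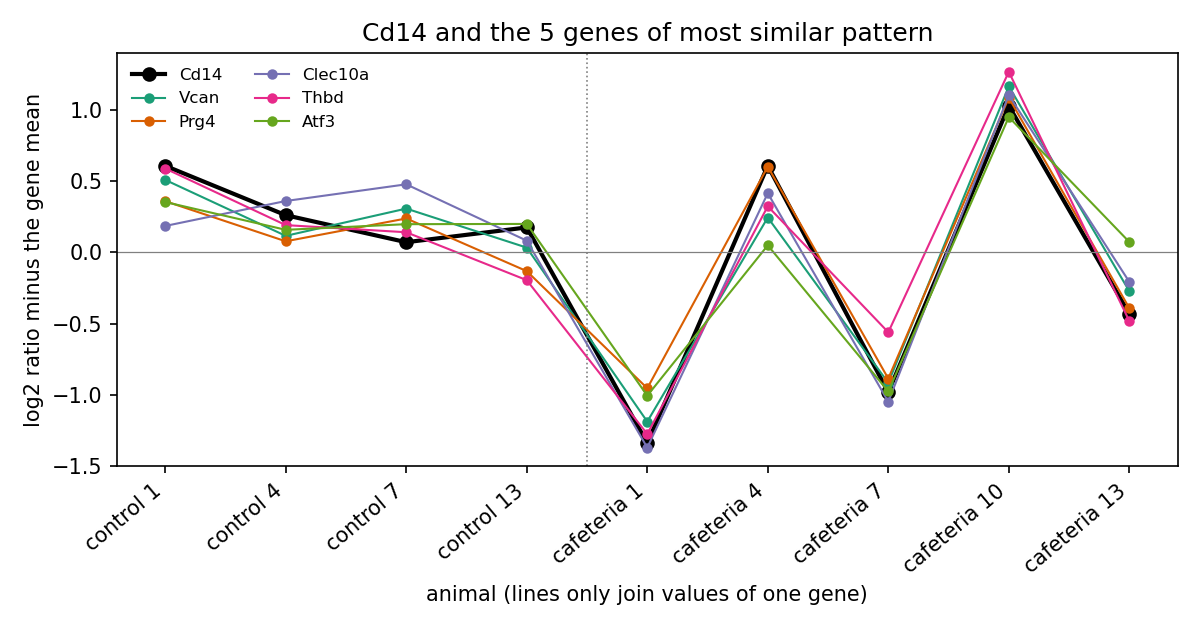
Log2 ratio minus the gene's mean over the rats (vertical axis) in each of 9 rats (horizontal axis) for Cd14 and the 5 genes of most similar pattern; lines only join values of 1 gene. All 6 genes are lowest in cafeteria 1 or 7 and highest in cafeteria 10, and the 5 were chosen for likeness to Cd14 in these rats.

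The genes nearest Tlr6, whose root mean square about its mean was 0.14, were Clk4 (0.061), Zfp263 (0.065), Esrra (0.068), Nr2c1 (0.072) and Pdcd7 (0.073). Clk4 is a kinase of splicing factors, Esrra and Nr2c1 are orphan nuclear receptors, and Zfp263 is a zinc finger protein. Their differences between the diets were 0.15, 0.18, 0.091, 0.23 and 0.060, in that order, beside 0.19 for Tlr6. Their distance was large relative to the spread of Tlr6 itself, so the likeness was looser than that of Vcan to Cd14.

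Of 78 other genes of the pathway, 71 were on the array and 63 were tested. Of these 39 were higher and 24 lower in cafeteria rats, 1 had an unadjusted p under 0.05 and 0 passed the adjusted threshold by limma. The median difference was 0.04, against 0.01 over all 11431 named genes, of which 526 had an unadjusted p under 0.05. The 1 gene was Ccl2, the monocyte chemoattractant, at -0.84 ± 0.60 (SD, n = 5) in cafeteria and -0.055 ± 0.17 (SD, n = 4) in control rats. Its difference was -0.79 (SE 0.27, 95% interval -1.38 to -0.19, unadjusted p = 0.0144, adjusted p = 0.997).

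Among the target genes of the pathway 11 of 16 were tested, with 6 higher and 5 lower. Il1b, the cytokine interleukin 1 beta, differed by -0.60 (SE 0.28, unadjusted p = 0.0582), Ccl3 by 0.25 (SE 0.19) and Il6 by 0.077 (SE 0.061). The Il6 probe was dimmer than that of Ly96 (mean log2 intensity 7.38 against 7.67), so its small difference and SE are limited in the same way. Of the transcription factors 9 of 12 were higher, with a median difference of 0.11. Nfkb2, a subunit of NF-kB, differed by 0.28 (SE 0.14, unadjusted p = 0.07004), Spi1, which encodes PU.1, by 0.21 (SE 0.13), Irf3 by 0.15 (SE 0.086) and Nfkb1 by 0.12 (SE 0.073).

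Of the adaptors and kinases 12 of 21 were higher and 9 lower. Tab2, which links TRAF6 to the kinase TAK1, differed by -0.16 (SE 0.071, unadjusted p = 0.0522), Traf3 by -0.14 (SE 0.072), Tbk1 by 0.099 (SE 0.065) and Ikbkb by 0.089 (SE 0.057). Of the inhibitors 5 of 9 were higher: Nfkbia, which holds NF-kB in the cytoplasm, differed by 0.16 (SE 0.17), Otud7b by -0.17 (SE 0.091), Il1rl1 by -0.12 (SE 0.068) and Tnip1 by 0.056 (SE 0.12). The list of chaperones and coreceptors also held Rnf216, which is neither. In that list 7 of 8 were higher, among them Ly86 by 0.16 (SE 0.14), Nrros by 0.091 (SE 0.11), Rnf216 by 0.075 (SE 0.054) and Cd180 by 0.044 (SE 0.069). Of 7 other Toll-like receptors 2 were tested, Tlr13 at -0.091 (SE 0.19) and Tlr3 at -0.021 (SE 0.19). The probes of Il1rl1 (mean log2 intensity 7.39) and Cd180 (7.68) were as dim as that of Ly96 or dimmer. No list had a member past the adjusted threshold, and each difference named here other than that of Ccl2 had a 95% interval that spans 0.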

How the data were processed

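PBMC RNA of 9 rats was measured on 2-colour arrays. Per the file headers, scanning and spot reading used Agilent Feature Extraction 9.5.1.1, and the files give mean spot and median background intensity without normalization. The deposited files also hold the software's log10 ratio, background-subtracted and dye-normalized. The authors' deposited table gives log2 values for 21466 of 45220 spots. It follows Cy5 (rank correlation 0.993 to 0.999), with column medians of 9.396 to 9.686, and how the reference and the normalization entered it is unknown.

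Intensities were corrected by normexp (offset 50) and loess within each array. Outlier spots and 1639 control spots were left out, and spots of a probe were averaged. Probes well above background in Cy5 on at least 4 arrays were fitted with limma 3.58.1 in R 4.3.3. The fit had 7 residual degrees of freedom (2.939 prior), and p was adjusted by Benjamini-Hochberg with a threshold of 0.05. The brightest probe on average stood for its gene. Names were updated through RefSeq for 21382 probes (52.1%). Relations were tested by exact permutation of all pairings.

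The genes and lists were chosen with earlier results of these data known. All 10 genes are described, up to 4 genes per pathway list (smallest p) are named, and 5 genes nearest in pattern to the members with the smallest p and with the widest range. Fits were tested on simulated data. Alternatives covered background, scaling, filter, blocks, weights and each rat left out. Replicates are separate animals. The number of arrays limits the precision.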

Additional observations from a re-analysis of the deposited data

Results flagged for a closer look

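One rat stood apart within its group for 1 gene. Tlr9 in control rats was 0.16 in control 7 (0.1562), and the gap to the next rat took 0.831 of the group's range, just past Dixon's limit for 4 samples. The same check was made in 22 combinations of probe and group, of which 1 passed the limit, and chance alone gives about 1 in 20. Without control 7 the Tlr9 difference was -0.02, beside -0.06 with all rats.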

How the results depend on the processing

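Tlr1, Tlr4, Tlr6, Tlr7, Tlr9, Irak4 and the first Cd14 probe kept the sign of their difference under every alternative run, and no probe of the 10 genes passed the adjusted threshold under any. The other signs turned. Ly96 turned to 0.0395 without background correction, 0.03065 with slide as a fixed block, 0.001339 with slide as a random block (consensus correlation 0.0874) and 0.006041 with array weights. Myd88 turned to 0.05112 with median centring, 0.01159 on the scanner's log ratio, 0.004541 on Cy5 alone, 0.1354 on the authors' values and 0.01272 on those values centred. Tlr2 turned to 0.05475 on Cy5 alone, 0.1367 on the authors' values, 0.01406 on those centred, 0.1848 with array weights and 0.1093 with extraction session as a block, an alternative chosen after seeing the data, as were the alternatives for the relations. Leaving out each rat in turn moved Tlr2 from -0.1602 to 0.1078, Ly96 from -0.03759 to 0.02601 and the second Cd14 probe from -0.2697 to 0.005765. It moved r for Tlr2 and Tlr1 from -0.3864 to 0.4856 and for Tlr2 and Tlr6 from -0.01383 to 0.4202. Among the relations, Tlr4 and Ly96 turned to 0.289 without background correction, 0.3235 on the scanner's ratio, 0.2628 on Cy5 alone, 0.3784 on the authors' values and 0.1726 on those centred. Tlr7 and Tlr9 turned to 0.35, 0.06993, 0.2855 and 0.1133 without background correction, on the scanner's ratio, on the authors' values and on those centred. Myd88 and Irak4 turned to 0.7405 with median centring and 0.4428 on the authors' values, and Tlr4 and Myd88 to 0.449 with median centring. The cause was not tested.

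The count of probes past the adjusted threshold was 2 and became 0 without background correction, with median centring, on the scanner's ratio, on Cy5 alone, on the authors' values centred or not, with slide as a fixed block, with the replicate block, with a trended and robust prior and with array weights. It was 3 with the extraction session as a block and 0 to 2 when a rat was left out. The count of member genes with an unadjusted p under 0.05 was 1 and became 0 with median centring, slide as a fixed block or the replicate block, and 2 on the authors' values (Tlr6 and Irak4). Apart from fits with a rat left out, Tlr1 ran from -0.25 to -0.02, Tlr4 from 0.12 to 0.32, Tlr7 from -0.47 to -0.07, Tlr9 from -0.22 to -0.01, Irak4 from 0.03 to 0.23 and Cd14 from -0.81 to -0.20 (second probe -0.53 to -0.03). Leaving out a rat gave 0 to 2: 0 without control 1, 7 or 13 or cafeteria 1, 7 or 13, 1 without control 4 (Tlr6) or cafeteria 4 (Irak4), and 2 (Tlr6 and Tlr4) without cafeteria 10. The labels name no pairing by the numbers that both groups share. Deviations of same-numbered rats correlated at -0.0479, 0.112, 0.0992 and -0.145, which cannot exclude a pairing because differently numbered rats were not compared. With the replicate block, which uses these numbers, the difference was -0.81 for Cd14 and 0.30 for Tlr4 (unadjusted p = 0.062 for each by limma). The authors' values as deposited raise the median difference of all probes to 0.1269, and the pathway median there was 0.205. Low signal over background limits what the ratios of the dim member probes, those of Ly96, Tlr9 and the second of Cd14, can show. The same holds for dim pathway probes such as those of Il6 and Il1rl1.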
